A study of Mus musculus with 24 samples.

Results

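The 32 genes described here code for cathepsins and other proteins of the lysosome, and were chosen as a list of symbols from the 48820 entries of each count table. All 32 were found in each of the 4 tables. They comprise 9 cysteine cathepsins (Ctsb, Ctsc, Ctsf, Ctsh, Ctsk, Ctsl, Ctso, Ctss and Ctsz), 5 other proteases (Ctsa, Ctsd, Ctse, Lgmn and Tpp1), 6 membrane proteins (Lamp1, Lamp2, Cd63, Cd68, Scarb2 and Npc1), 4 lipid-handling proteins (Npc2, Lipa, Psap and Asah1), 6 glycosidases (Hexa, Gusb, Glb1, Man2b1, Neu1 and Gaa), and the regulators Grn and Tfeb.

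The lysosome is the acidic compartment in which cells break down what they take up and what they recycle. Cathepsins are its main proteases, LAMP proteins line its membrane, and TFEB, with its relatives of the MiT/TFE family, switches on many lysosomal genes through a short E-box motif in their promoters. Kupffer cells (KCs), the resident macrophages of the liver, and the sinusoidal endothelial cells (ECs) are the scavengers of this organ, and both send what they remove from blood to their lysosomes.

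RNA-seq counts of 24 mouse libraries were used, 3 for each of 8 groups, to ask how GDF2 (BMP9) and BMP10 made by hepatic stellate cells (HSCs), and SMAD4, a mediator of their signals, affect liver macrophages, ECs and the liver. Gdf2/Bmp10 HSC-KO mice carry floxed Gdf2 and Bmp10 alleles and Lrat Cre, which acts in HSCs, and were compared with littermate controls. Liver macrophages (gate CD45+Ly6C-F4/80+CD64+) and ECs (gate CD45-CD31+) were sorted from mice aged 8 to 10 weeks, and whole livers came from mice aged 12 weeks. Liver macrophages sorted from Smad4 fl/fl Vav1 Cre mice (Smad4 cKO), in which the Cre acts across blood cells, were compared with macrophages of Smad4FF mice at 8 to 10 weeks. All lines were on a C57BL/6J background. By the animal codes in the labels, each library of a group came from another mouse, and 3 mice gave both a macrophage and an EC library.

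The libraries held between 60911527 and 110879155 counts each. Levels are given as CPM, the count of a gene relative to the total count of its library, adjusted within each table of 6 libraries by TMM factors. Differences were tested with edgeR's quasi-likelihood test over all genes past a filter on low counts. A gene is called where its Benjamini-Hochberg adjusted p was below 0.05, and is termed a differentially expressed gene (DEG) where the absolute log2 fold change was also above 1. Fold changes are mutant against control unless named otherwise. Where a standard error (SE) is given, it was derived as the absolute log2 fold change divided by the square root of the test's F statistic. Of the deleted genes, Gdf2 had 18.4, 9.38 and 22.5 CPM in control livers and 3.84, 2.12 and 2.63 CPM in HSC-KO livers, Bmp10 had 3.28, 2.72 and 1.99 CPM against 0.0938, 0.262 and 0.111 CPM, and Smad4 had 40.1, 35.2 and 42.8 CPM in Smad4FF macrophages and 17.2, 12.6 and 15.4 CPM in Smad4 cKO macrophages. A summed level of 12 markers of all macrophages was 29874 to 30035 CPM in control and 23499 to 26002 CPM in HSC-KO macrophages, while 4 KC markers (Clec4f, Timd4, Vsig4 and Cd5l) summed to 27186 to 28798 CPM in control and 39.7 to 212 CPM in HSC-KO macrophages, and to 23024 to 29051 against 497 to 526 CPM in the Smad4 pair. In ECs, 12 markers of all ECs summed to 18026 to 21302 CPM in control and 14858 to 15793 CPM in HSC-KO libraries.

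The members made up 5.21, 5.14 and 5.14% of all counts in control macrophages and 4.38, 3.90 and 3.80% in HSC-KO macrophages. In ECs the share was 1.22, 1.04 and 1.19% in control and 0.870, 0.578 and 0.612% in HSC-KO libraries. Both pairs of groups were apart, with every HSC-KO library below every control library. The Smad4 pair was also apart, with 4.30, 5.14 and 4.53% in Smad4FF and 3.98, 4.19 and 4.28% in Smad4 cKO macrophages, although the gap was small. Livers overlapped, with 0.547, 0.589 and 0.553% in control and 0.520, 0.549 and 0.469% in HSC-KO libraries. Such sums are led by a few abundant genes, foremost Ctsb in macrophages.

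**Figure D1:**
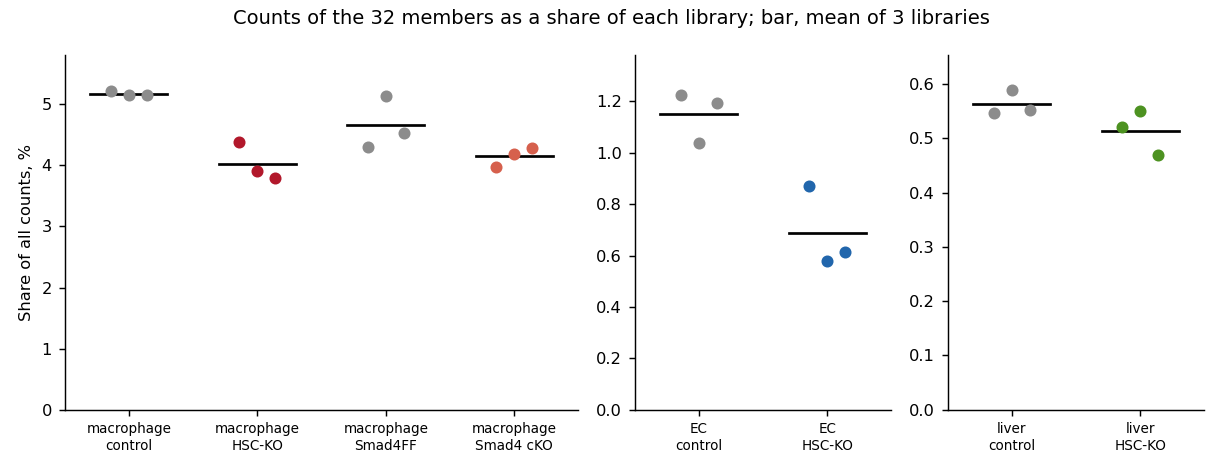
Counts of the 32 members as a percentage of all counts, on a separate axis from 0 for macrophages, ECs and livers. Each point is a library and each bar the mean of 3 libraries. HSC-KO macrophages (3.80 to 4.38%) lie below control macrophages (5.14 to 5.21%), and HSC-KO ECs (0.578 to 0.870%) below control ECs (1.04 to 1.22%).

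Some members share more than their place in the cell. In the RefSeq promoter windows of GRCm38.p6, which span 250 bases before to 50 bases after a gene's start, 27 of the 32 members were matched by symbol. Asah1, Ctsb, Ctse, Ctsh and Npc1 were not matched. The E-box letters CACGTG, which read the same on both strands, stood in the windows of 8 of the 27 matched members (29.6%) and of 2187 of all 27025 genes in the table (8.09%). These 8 were Ctsa, Ctsd, Ctsf, Ctsl, Gaa, Glb1, Lamp1 and Lgmn, and the motif was present for 7 of the 16 matched members called lower in HSC-KO ECs and for 5 of the 11 called lower in HSC-KO macrophages (below). Of the matched members not called lower, it was present for 1 of 11 in ECs and 3 of 16 in macrophages. Over all matched genes called lower it was present for 157 of 1153 in ECs (13.6%) and 131 of 1202 in macrophages (10.9%), against 11.3% and 11.4% of the matched genes tested. The longer form TCACGTGA was found for 2 members, Ctsa and Ctsd (7.41% of the 27), against 1.12% of all genes. Of the matched genes tested it was found for 2.09% in ECs and 2.1% in macrophages. A match is a run of letters and no measured binding.

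Of the DEGs that fell in ECs, Ctsc, Ctsk, Hexa, Lamp2, Man2b1, Scarb2 and Tpp1 hold no CACGTG in their windows. Whether the motif bears on the falls was not tested. The stretches around these letters are shown for the 5 DEGs of ECs that hold them. Each runs 5′ to 3′ on the gene's strand and ends before the gene's start, with CACGTG in capitals and up to 30 bases on each side. The positions are chr8:13159070-13159160 (+ strand) for Lamp1, chr7:142387890-142387955 (- strand) for Ctsd, chr11:119267793-119267858 (+ strand) for Gaa, chr13:64370721-64370770 (- strand) for Ctsl, and chr12:102439106-102439171 (- strand) for Lgmn, which has 2 windows and the motif in 1 of them. The Lamp1 stretch carries the motif 4 times within its last 61 bases.
Lamp1: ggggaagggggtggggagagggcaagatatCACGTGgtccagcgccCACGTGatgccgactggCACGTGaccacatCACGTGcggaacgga
Ctsd: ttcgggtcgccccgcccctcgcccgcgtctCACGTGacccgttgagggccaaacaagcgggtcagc
Gaa: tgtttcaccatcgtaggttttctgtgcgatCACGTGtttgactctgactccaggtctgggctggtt
Ctsl: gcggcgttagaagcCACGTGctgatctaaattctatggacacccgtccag
Lgmn: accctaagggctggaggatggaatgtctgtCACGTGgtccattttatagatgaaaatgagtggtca
The window of Ctsd holds a second match farther from its start, which is not shown.

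Before the mutants, the control cells show how the members divide between the cell types. Control macrophages had higher levels than control ECs of 23 of the 31 members tested and lower levels of 5 (called higher, 24.6% of all genes tested; called lower, 24.5%). These cells were sorted by different gates and counted in separate tables, and any difference between the preparations cannot be told apart from that between the cell types. The median log2 fold change over the members was 1.75, against 0.00089 over all genes. Per kilobase of exon, the most abundant members of control macrophages were Ctsb, a cysteine endopeptidase (3092 CPM per kb), Ctss, the cysteine cathepsin of antigen-presenting cells (3020.3), Ctsd, the main aspartic protease of the lysosome (2009.6), and Cd68, a macrophage LAMP-family glycoprotein (1671). The ranges of Ctsb and Ctss over the 3 libraries overlapped, whereas Ctss, Ctsd and Cd68 were apart from each other. In control ECs the order began with Ctsd (673 CPM per kb), Psap, the precursor of the saposins (459), Ctsb (389) and Lamp1 (332). Ctsd was above Psap in every library, and the others overlapped with their neighbours.

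The members higher in control ECs were Ctsk, the collagen-cleaving cathepsin of osteoclasts (log2 fold change -3.86, SE 0.50, edgeR adjusted p = 0.000672 for macrophages against ECs), Cd63, a tetraspanin of late endosomes and lysosomes (-3.01), Ctsl, a broad endopeptidase (-1.99), Lamp2 (-0.60) and Ctso (-0.36). The edgeR adjusted p of the last 4 ranged from 0.000441 to 0.0434. Ctsl thus had 1656, 1493 and 1777 CPM in control ECs and 383, 412 and 291 CPM in control macrophages, with no overlap. Gaa, Scarb2 and Tpp1 were not called (log2 fold changes -0.061, 0.049 and -0.029). At the other end stood Ctsc, Cd68, Ctss and Ctsh, with log2 fold changes of 10.54, 10.13, 9.74 and 8.01. At the level of macrophage markers in the EC libraries, macrophage transcripts could supply 256, 193, 147 and 44.3% of the measured control EC levels of these 4 genes. For Ctsc, Cd68 and Ctss this estimate exceeds the measured level and is therefore too high. How far the fold changes of the 4 genes depend on the macrophage share of the EC libraries was not tested. Ctse, an intracellular aspartic protease, had 0 counts in all 6 EC libraries, which does not exclude a low level, here taken as up to 3 counts in each.

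Macrophages of HSC-KO mice had lower levels of Ctsb, Ctsl, Lgmn, Lipa and other members than control macrophages, and a far higher level of Cd63. Of the 32 members, 13 were called lower (9.87% of the 16337 genes tested) and 4 higher (9.29%), 3 were DEGs that fell (5.34%) and 2 were DEGs that rose (6.32%). The groups did not overlap for 22 members (40.3% of all genes). The median log2 fold change was -0.32, against 0.039 over all genes. By role, 5 of 9 cysteine cathepsins, 2 of 5 other proteases, 2 of 6 membrane proteins, 1 of 4 lipid-handling proteins, 2 of 6 glycosidases and 1 of 2 regulators fell. The number of members called lower was 8 without control replicate 1, 6 without control replicate 2 and 7 without HSC-KO replicate 3, and the number called higher was 2 without control replicate 2 or control replicate 3. Ctsb, Ctsl, Ctso, Ctse, Lgmn, Cd63, Scarb2 and Lipa were called in every alternative run in which they were tested, and the other 9 lost their call without control replicate 2 (edgeR adjusted p = 0.0529 to 0.132). Xist, which marks female mice, was counted in 1 of 3 control and 2 of 3 HSC-KO libraries, and with Xist as a covariate Ctsf, Cd68 and Man2b1 also lost their call (edgeR adjusted p = 0.0564, 0.0551 and 0.0757). Markers of T and NK cells summed to 8.39 to 22.3 CPM in control and 57.3 to 183 CPM in HSC-KO macrophages, markers of B cells to 62.9 to 104 and 164 to 197 CPM, and markers of dendritic cells to 6.83 to 10.9 and 16.8 to 33.9 CPM. These 3 sums were apart between the groups, but that of B cells rested on Cd79b (log2 fold change 1.24), the one of its 4 genes with a positive value. Of the markers tested, 5 of 7 of T and NK cells, 2 of 5 of dendritic cells and 1 of 4 of B cells were called higher. The sums of stellate cell (8.36 to 60.9 and 41.4 to 102 CPM), EC (59.9 to 347 and 14.3 to 73.6 CPM) and hepatocyte markers (249 to 887 and 328 to 509.8 CPM) overlapped. All 12 EC markers nevertheless had negative log2 fold changes (median -2.77), 2 of them called (Pecam1 and Erg), as had all 8 hepatocyte markers (median -1.13), 3 of them called (Cps1, Tat and Cyp2e1). The monocyte sum also overlapped but hid opposite changes, as Ccr2 (3.29) and Ly6c2 (2.73) rose and Plac8 fell (-4.38). The macrophage gate was CD45+Ly6C-F4/80+CD64+, and markers of other cell types were still counted in the sorted cells. The part of these other cell types in the results was not tested. In bulk samples, fewer cells of a type and less RNA per cell cannot be told apart.

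Cd63 (chr10:128900989-128912822, + strand, GRCm38) moved most. It had 4.60, 6.71 and 4.65 CPM in control macrophages (389, 570 and 266 counts) and 668, 749.6 and 486 CPM in HSC-KO macrophages (log2 fold change 6.90, SE 0.27, edgeR adjusted p = 2.49e-05). The lowest HSC-KO library was far above the highest control library. No exon of another gene overlaps Cd63 in the GENCODE vM21 annotation. Carried over at the share of the endothelial markers, ECs could supply 0.519 CPM of the control level and 0.139 CPM of the HSC-KO level.

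**Figure D2:**
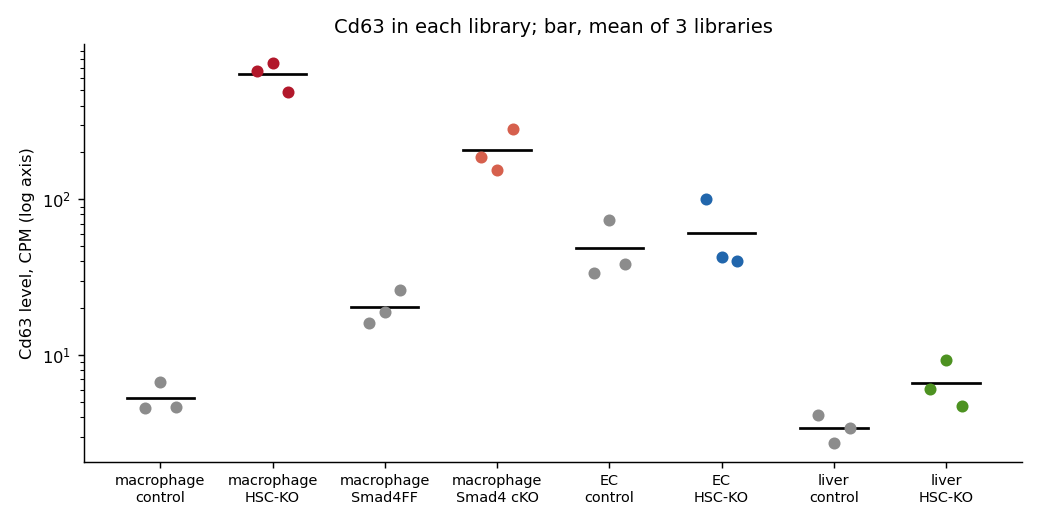
Level of Cd63 in CPM on a log axis, in each library (points) with the mean of 3 libraries (bars), for the 8 groups. HSC-KO macrophages (486 to 749.6 CPM) and Smad4 cKO macrophages (155 to 283 CPM) lie above their controls (4.60 to 6.71 and 16.2 to 26.3 CPM), while ECs of control and HSC-KO mice overlap.

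Among the cysteine cathepsins, Ctsb (chr14:63122462-63145923, + strand), the member with the most counts, fell from 17416, 18263 and 20456 CPM to 10867, 6836 and 8503 CPM (log2 fold change -1.10, SE 0.21, edgeR adjusted p = 0.00965). Ctsl had 383, 412 and 291 CPM in control and 156, 184 and 136 CPM in HSC-KO macrophages (log2 fold change -1.19, SE 0.18, edgeR adjusted p = 0.00337). Ctso, a less studied cysteine cathepsin, had 101, 96.2 and 91.8 CPM against 65.1, 61.0 and 61.6 CPM (log2 fold change -0.62, SE 0.10, edgeR adjusted p = 0.00491). All 3 were lower in every HSC-KO library than in any control library. Ctsf (-0.70) and Ctsh, an aminopeptidase (-0.57), also fell (edgeR adjusted p = 0.0258 and 0.0267). Ctss, Ctsz, Ctsc and Ctsk were not called, with log2 fold changes of 0.33, 0.19, -0.11 and -1.18. Ctsk was barely detected, with 20, 11 and 18 counts in control and 11, 8 and 8 counts in HSC-KO macrophages. Exons of Ctsl overlap an antisense gene and a pseudogene, those of Ctsb overlap Fdft1 on the other strand, and whether the counting used the strand is not given in the sources used here.

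Lgmn, the asparaginyl endopeptidase legumain that processes several cathepsins, had 2331, 2303 and 2408 CPM in control and 1450.4, 1329.9 and 1123 CPM in HSC-KO macrophages (log2 fold change -0.85, SE 0.14, edgeR adjusted p = 0.00578). Ctsd fell as well, from 4543, 4944 and 4686 CPM to 3304, 2465 and 1970.0 CPM (log2 fold change -0.87, SE 0.20, edgeR adjusted p = 0.0222), and the groups of both genes were apart. In the vM21 annotation, 34.4% of the Ctsd exons overlap those of a predicted gene on the same strand that has no entry in the count tables. Ctse rose from 0.189, 0.118 and 0.105 CPM to 1.30, 1.86 and 1.12 CPM (16, 10 and 6 against 114, 177 and 102 counts; log2 fold change 3.35, SE 0.52, edgeR adjusted p = 0.00408), so that it stayed one of the least abundant members. Ctsa, the protective protein of beta-galactosidase and neuraminidase, and Tpp1, a tripeptidyl peptidase, were not called (-0.33 and 0.0089).

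Among the lipid-handling genes, Lipa, the lysosomal acid lipase that splits cholesteryl esters and triglycerides, had 652, 604 and 606 CPM in control and 317, 257 and 208 CPM in HSC-KO macrophages (log2 fold change -1.25, SE 0.17, edgeR adjusted p = 0.00214). Psap went the other way, from 3386, 3563 and 3249.8 CPM to 5457, 5164 and 5164 CPM (log2 fold change 0.63, SE 0.13, edgeR adjusted p = 0.0145). The libraries of the groups did not overlap for either gene. Asah1, the acid ceramidase, and Npc2, the soluble cholesterol carrier, were not called (-0.089 and -0.33).

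Of the membrane proteins, Scarb2, the receptor that carries glucocerebrosidase to lysosomes, fell from 422, 412 and 351 CPM to 245, 222 and 194 CPM (log2 fold change -0.84, SE 0.14, edgeR adjusted p = 0.00507), with no overlap. Cd68 fell as well (log2 fold change -0.73, SE 0.18, edgeR adjusted p = 0.0296). Lamp1, Lamp2 and Npc1, the cholesterol exporter of the lysosomal membrane, were not called (-0.31, -0.27 and 0.45). Of the glycosidases, Gusb, the beta-glucuronidase, rose (log2 fold change 0.64, SE 0.14, edgeR adjusted p = 0.0163). Glb1, the beta-galactosidase, and Man2b1, the alpha-mannosidase, fell (-0.46 and -0.57, edgeR adjusted p = 0.0262 and 0.0474). Hexa, Neu1 and Gaa were not called (0.026, -0.31 and 0.11). Grn, the precursor of granulins, had 3651, 3218 and 3048 CPM in control and 2452, 1954 and 1930.0 CPM in HSC-KO macrophages (log2 fold change -0.65, SE 0.16, edgeR adjusted p = 0.0262). Tfeb itself had 46.3, 38.8 and 49.7 CPM against 54.6, 53.9 and 53.1 CPM, and the difference was not called (log2 fold change 0.26, SE 0.12, edgeR adjusted p = 0.190), although the groups did not overlap.

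**Figure D3:**
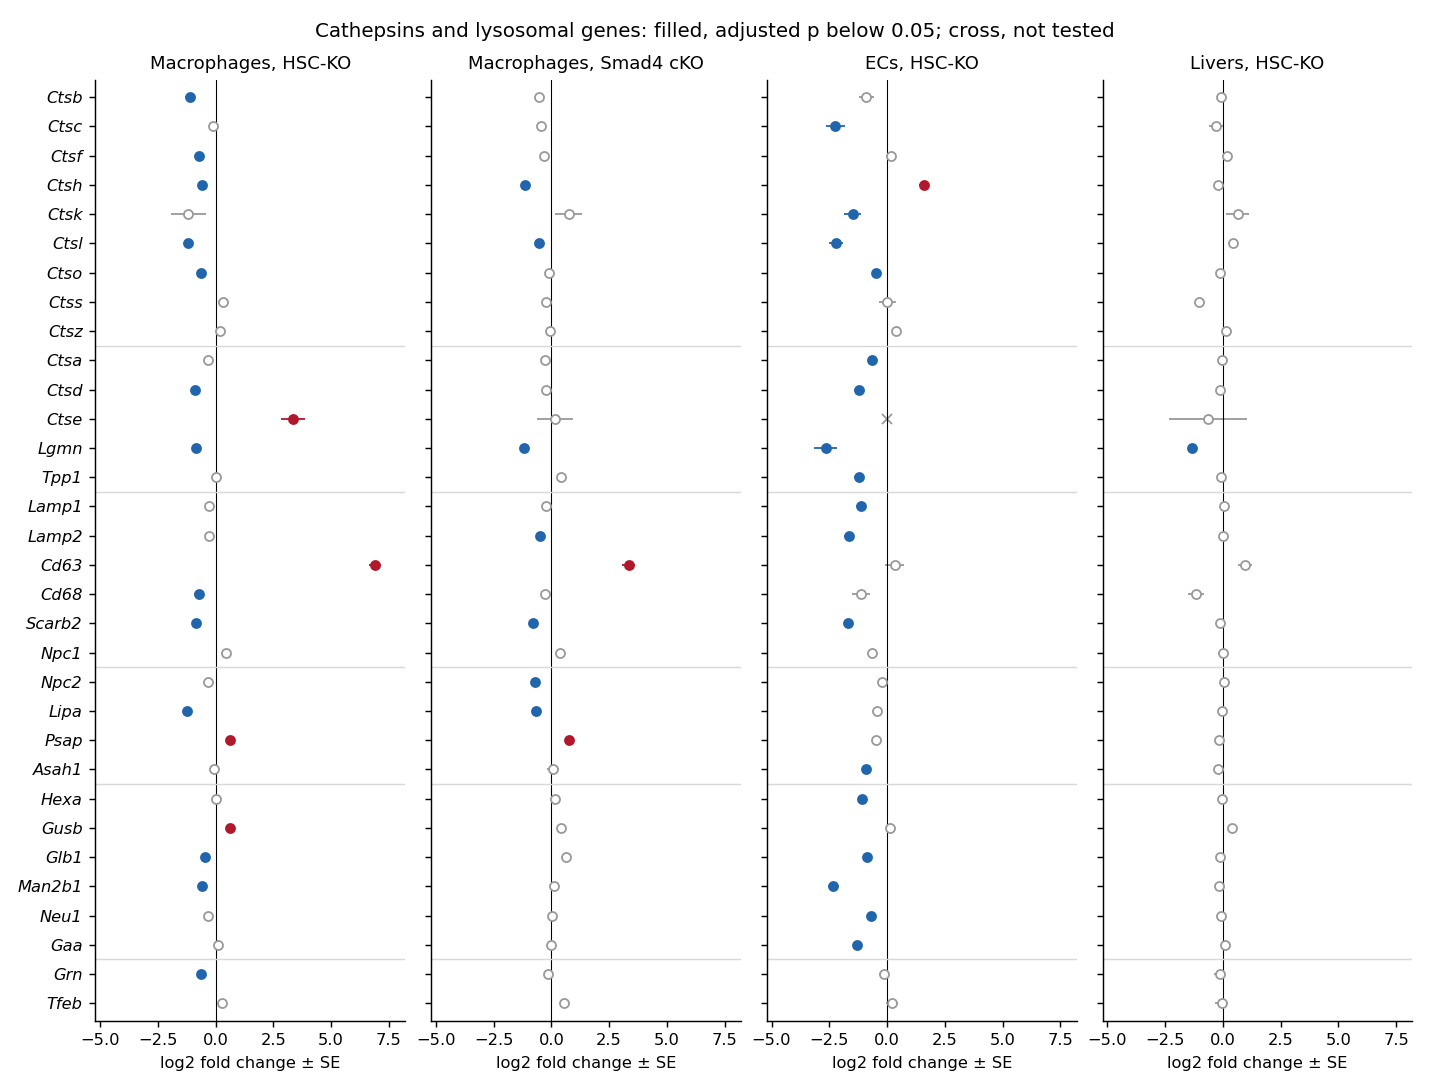
Log2 fold change ± standard error of each member in the 4 comparisons of mutant against control, ordered by role from cysteine cathepsins (top) to regulators (bottom). Filled points passed an adjusted p of 0.05 (red higher, blue lower in the mutant), open points did not, and the cross marks Ctse, which was not tested in ECs. The EC panel holds 17 members called lower, the HSC-KO macrophage panel 13, the Smad4 cKO panel 7 and the liver panel 1.

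The other lysosomal genes of HSC-KO macrophages are given by list, to be read against the shares over all genes (9.29% called higher and 9.87% lower, 6.32% DEGs higher and 5.34% lower). Of 36 further lysosomal hydrolases 5 were called higher and 8 lower, of which 3 and 2 were DEGs. Galc, the galactosylceramidase (1.38), and Arsb, the arylsulfatase B (1.36), were among the DEGs that rose, and Creg1 (-1.72) and Hyal2 (-1.35) were those that fell. Of 29 genes of lysosomal membrane transport 6 were called higher and 4 lower. The DEGs that rose were the channel gene Tpcn1 (2.23), the peptide transporter gene Abcb9 (1.91) and the nucleoside transporter gene Slc29a3 (1.69), and those that fell were Slc15a3 (-1.74), Cd164 (-1.67) and Hgsnat (-1.32). Among 20 sorting genes 1 was called higher and 2 lower, all DEGs: Sort1, the sortilin receptor, rose (5.47), and Igf2r, the mannose 6-phosphate receptor that delivers hydrolases to lysosomes, fell (-3.33), as did Plekhm1 (-1.06). Of the 19 genes of the proton pump (V-ATPase), 6 were called lower and 1 higher, with a median of -0.31, and the DEGs were Atp6v0d2 (2.30) and Atp6v0e2 (-2.80). Of 14 autophagy genes 4 were called lower, with a median of -0.35, and Map1lc3a was a DEG (-1.02). Of 17 MiT/TFE and nutrient-sensing genes 2 were called higher and 1 lower, the latter being the DEG Tfec, a TFEB relative (-1.14). Of the 3 cystatin genes tested 2 were called higher and 1 lower, and Cst3 and Cst7, which code for inhibitors of cysteine cathepsins, were DEGs that rose (1.05 and 2.60). The edgeR adjusted p of these DEGs was at most 0.0413.

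In Smad4 cKO macrophages fewer members passed the test. Of 32 tested, 7 were called lower (4.03% of the 17517 genes tested) and 2 higher (3.71%), 2 being DEGs that fell (2.67%) and 1 a DEG that rose (2.76%). For 17 members the groups did not overlap (29.4% of all genes). The median log2 fold change was -0.11, against 0.036 over all genes, and it turned positive (0.045) when library size alone was used for scaling, which moved the median of all genes by 0.16. The number called lower was 4 without Smad4FF replicate 1, 3 without Smad4FF replicate 2, 2 without Smad4FF replicate 3, 1 without Smad4 cKO replicate 1 and 4 without Smad4 cKO replicate 3. The number called higher was 1 without Smad4FF replicate 2, Smad4FF replicate 3 or Smad4 cKO replicate 1. Cd63 and Lgmn were called in every alternative run, and the other 7 lost their call without Smad4 cKO replicate 1 (edgeR adjusted p = 0.0502 to 0.143).

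Cd63 rose here as well, from 16.2, 18.9 and 26.3 CPM in Smad4FF to 188, 155 and 283 CPM in Smad4 cKO macrophages (log2 fold change 3.35, SE 0.29, edgeR adjusted p = 0.000797). Lgmn had 1916, 2697 and 2183 CPM against 1070.5, 968 and 999.9 CPM (log2 fold change -1.16, SE 0.15, edgeR adjusted p = 0.00400). Ctsh had 2209, 3181 and 2484 CPM against 1179.9, 1051 and 1387 CPM (log2 fold change -1.12, SE 0.18, edgeR adjusted p = 0.00904). None of the 3 genes showed overlap between the groups. Smaller falls were found for Scarb2, with 232, 242 and 265 against 145, 158 and 122 CPM (log2 fold change -0.79, SE 0.13, edgeR adjusted p = 0.0121), and for Lipa, with 280.3, 336 and 344 against 186, 206 and 215 CPM (log2 fold change -0.66, SE 0.13, edgeR adjusted p = 0.0210). Psap rose from 1926, 1929.9 and 2328 to 3336, 3992 and 3069 CPM (log2 fold change 0.75, SE 0.15, edgeR adjusted p = 0.0213). The groups were apart for these 3 genes.

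Lamp2 had 432, 469 and 426 CPM in Smad4FF and 298, 319 and 320.0 CPM in Smad4 cKO macrophages (log2 fold change -0.50, SE 0.11, edgeR adjusted p = 0.0303). For Npc2 the levels were 625, 865 and 618 CPM and 432, 373 and 474 CPM (log2 fold change -0.72, SE 0.17, edgeR adjusted p = 0.0462). Ctsl fell from 589.8, 546 and 598 to 454, 385 and 359 CPM (log2 fold change -0.53, SE 0.13, edgeR adjusted p = 0.0465). The groups were apart, but each of these 3 calls was lost with library size alone. Tfeb had 26.8, 34.4 and 31.2 CPM against 40.7, 49.7 and 46.4 CPM and was not called (log2 fold change 0.57, SE 0.14, edgeR adjusted p = 0.0554), with every Smad4 cKO library above every Smad4FF library. The remaining members were not called, with log2 fold changes from -0.52 for Ctsb to 0.74 for Ctsk.

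Endothelial markers were higher in these libraries than in those of the HSC-KO pair. They summed to 2224, 638 and 2167 CPM in Smad4FF and 2201, 2303 and 1733 CPM in Smad4 cKO macrophages, which is 3.18 to 11.1% and 8.64 to 11.5% of their sum in control ECs. At these shares, EC transcripts could supply 23.7% of the Ctsl level in Smad4FF and 42.6% in Smad4 cKO macrophages. For Scarb2 the shares were 14.8 and 31.7%, for Lamp2 16.0 and 28.1%, and for Ctso 23.3 and 30.9%, whereas Cd63 could owe 4.08 and 5.06 CPM to them. Lgmn could owe 2.48 and 6.88% of its level to ECs, and Ctsh 0.0305 and 0.0824%. Smad4FF replicate 2 had the lowest endothelial markers and also the highest Lgmn, Ctsh, Npc2 and Ctsb levels of its group. Markers of monocytes summed to 131 to 165 CPM in Smad4FF and 8.54 to 22.4 CPM in Smad4 cKO macrophages, those of B cells to 96.7 to 152 and 213 to 218 CPM, and those of dendritic cells to 20.4 to 22.6 and 12.6 to 20.1 CPM, each apart between the groups. Of the 4 monocyte markers Plac8 alone was called (-4.02), and of the 4 B cell markers Cd79b alone (1.18), the other 3 having negative values. Of the 5 dendritic cell markers, Siglech was called higher (2.98) and Clec9a lower (-1.09). The gate of these libraries is not given separately in the sources used here. The part of monocytes, B cells and dendritic cells in the results was not tested.

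The further lysosomal genes gave DEGs in 3 of the 7 lists in Smad4 cKO macrophages (over all genes, 3.71% were called higher and 4.03% lower). Of 36 hydrolases 2 were called higher and 5 lower, among them the DEGs Ppt1, the palmitoyl-protein thioesterase (1.22), and Acp5 (-1.43). Of 29 transport genes 4 were called higher and 3 lower, the DEGs being Cd164 (-1.64) and Slc15a3 (-1.45). Of 20 sorting genes 1 was called higher and 2 lower: Sort1 rose (4.40), and Igf2r (-2.83) and Plekhm1 (-1.18) fell. Of 19 V-ATPase genes 3 were called lower, of 14 autophagy genes 1 lower, and of 17 MiT/TFE and nutrient-sensing genes 1 higher and 1 lower. The edgeR adjusted p of these DEGs was at most 0.00865.

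The responses of the macrophages of both mutants were compared as an interaction over their 12 libraries. Cd63 rose more in HSC-KO than in Smad4 cKO macrophages (difference of log2 fold changes 3.59, SE 0.38, edgeR adjusted p = 0.000710), and Glb1 differed in the opposite sense (difference of log2 fold changes -1.06, SE 0.21, edgeR adjusted p = 0.0220), having fallen in HSC-KO macrophages (-0.46) while its value in Smad4 cKO macrophages was 0.64 and not called. These were the only members called by edgeR's quasi-likelihood test, 1 higher (1.62% of the 18149 genes tested) and 1 lower (1.32%). For the other 30 members the difference was not called, which does not show that the responses were alike. Ctse had a difference of 3.26 (edgeR adjusted p = 0.104), Man2b1 of -0.65 and Ctsl of -0.61. By their own comparisons, Ctsh, Ctsl, Lgmn, Scarb2 and Lipa were called lower in both mutants, and Cd63 and Psap higher in both. Glb1 was not called in the interaction without HSC-KO replicate 2 (edgeR adjusted p = 0.0541) or Smad4FF replicate 2 (edgeR adjusted p = 0.05001), nor with a replicate block (edgeR adjusted p = 0.0857).

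ECs of HSC-KO mice had more members called lower than any other of the 4 mutant groups, among them the proteases Lgmn, Ctsl and Ctsd, the glycosidase Man2b1 and the membrane proteins Scarb2, Lamp1 and Lamp2. Of the 31 members tested, 17 were called lower (9.77% of the 16053 genes tested) and 1 higher (10.3%). As DEGs, 12 fell (6.01%) and 1 rose (7.68%). The groups did not overlap for 24 members (40.4% of all genes). The median log2 fold change was -0.85, against 0.0048 over all genes. By role, 4 of 9 cysteine cathepsins, all 4 other proteases tested, 3 of 6 membrane proteins, 1 of 4 lipid-handling proteins and 5 of 6 glycosidases fell, while neither regulator was called. Without HSC-KO replicate 3, 11 members were called lower, and Ctsk, Ctso, Ctsa, Glb1, Neu1 and Lamp1 lost their call (edgeR adjusted p = 0.0558 to 0.124). With library size alone, the median of all genes rose by 0.29 and that of the members was -0.57, and the calls of Ctsk, Ctso, Ctsa, Glb1 and Neu1 were lost.

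5 markers of sinusoidal ECs (Stab2, Lyve1, Clec4g, Fcgr2b and Mrc1) summed to 13052 to 14861 CPM in control ECs and to 1951, 234 and 190 CPM in HSC-KO replicates 1, 2 and 3. HSC-KO replicate 1, the library with the highest remaining sinusoidal markers, also had the highest Lgmn, Ctsl, Ctsb and Cd63 levels among the HSC-KO ECs. The part of sinusoidal ECs in its levels was not tested. Leaving it out gave 18 members called lower and 1 higher. The macrophage markers in EC libraries also moved with the genotype, from 50.4 to 66.3 CPM in control to 5.19 to 6.25 CPM in HSC-KO ECs, and the KC markers from 21.7 to 23.3 CPM to 0 to 0.154 CPM. At that marker level, macrophages could supply 4.04 CPM of Ctsc, 8.02 CPM of Ctss and 4.11 CPM of Cd68 in control ECs, each more than the measured mean of 1.57, 5.47 and 2.13 CPM. For Ctsh the share was 44.3% in control and 1.19% in HSC-KO ECs, and for the other members with counts in ECs it was at most 1.55% in control (Ctsb) and 0.289% in HSC-KO ECs (Lgmn).

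Lgmn (chr12:102394084-102439813, - strand) fell most among the members in ECs. It had 586, 701 and 731 CPM in control and 199, 71.4 and 48.7 CPM in HSC-KO ECs (log2 fold change -2.66, SE 0.50, edgeR adjusted p = 0.00917). HSC-KO replicate 1 had the highest of the 3 levels, and without it the log2 fold change was -3.49. Ctsl (chr13:64359337-64370890, - strand) had 1656, 1493 and 1777 CPM against 535, 278 and 259 CPM (log2 fold change -2.20, SE 0.30, edgeR adjusted p = 0.00245), and Ctsd (chr7:142375911-142388038, - strand) had 1606, 1368 and 1770.0 CPM against 877, 623 and 567 CPM (log2 fold change -1.20, SE 0.22, edgeR adjusted p = 0.00823). The 3 proteases were abundant in control ECs and apart between the groups. Tpp1 fell from 376, 367 and 416 to 210.1, 144 and 138 CPM (log2 fold change -1.24, SE 0.19, edgeR adjusted p = 0.00409). Ctsk (chr3:95499256-95509362, + strand) fell from 4.92, 2.31 and 3.95 to 1.33, 1.58 and 1.06 CPM (log2 fold change -1.50, SE 0.36, edgeR adjusted p = 0.0241). Its neighbour on chromosome 3, Ctss (chr3:95526786-95556403, + strand), had 6.08, 4.14 and 6.19 CPM against 8.74, 3.98 and 3.73 CPM and a log2 fold change of 0.0040, which was not called.

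Ctsc, the dipeptidyl peptidase that activates granule proteases, was called lower at a low level (1.76, 1.31 and 1.66 CPM against 0.435, 0.279 and 0.281 CPM; log2 fold change -2.24, SE 0.41, edgeR adjusted p = 0.00837), a level within the estimated supply of macrophage transcripts given above. Ctso (-0.50) and Ctsa (-0.64) fell by less (edgeR adjusted p = 0.0292 and 0.0345). Exons of Ctsa overlap those of Pltp on the other strand over 10.5% of their length. Ctsh (chr9:90054152-90076089, + strand) was the only member called higher in ECs by edgeR's quasi-likelihood test with TMM factors. It rose from 12.2, 9.28 and 7.33 CPM to 32.9, 31.0 and 23.2 CPM (log2 fold change 1.60, SE 0.23, edgeR adjusted p = 0.00298), with no overlap between the groups. The summed monocyte markers rose in the same libraries, from 11.1 to 13.6 CPM in control to 84.5 to 116 CPM in HSC-KO ECs, through Ly6c2 (log2 fold change 8.82) and Plac8 (1.14). The other 2 markers of that list were near or at 0 in all 6 EC libraries, with Ccr2 between 0 and 0.112 CPM and Chil3 at 0 counts. The part of monocytes in the Ctsh level was not tested. Ctsb had 1918, 2414 and 2733 CPM against 1924, 970.2 and 903 CPM and was not called (log2 fold change -0.90, SE 0.32, edgeR adjusted p = 0.0970). HSC-KO replicate 1 of Ctsb lay within the control range and the other 2 libraries lay below it. Ctsf and Ctsz were not called either (0.15 and 0.40).

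**Figure D4:**
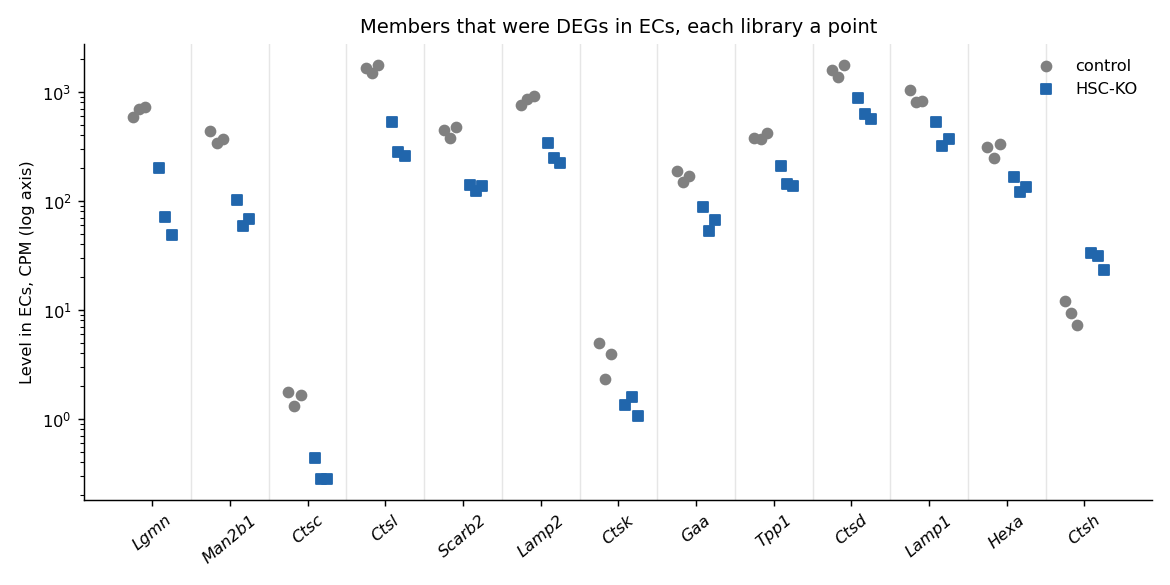
Levels in CPM on a log axis of the 13 members that were DEGs in ECs, ordered from the largest fall (Lgmn) to the rise (Ctsh). Grey circles are the 3 control and blue squares the 3 HSC-KO libraries. The groups are apart for each gene, and the leftmost square, HSC-KO replicate 1, is the highest of its group for every gene but Ctsk.

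Of the membrane proteins, Scarb2, Lamp1 and Lamp2 fell in ECs. Scarb2 had 446, 382 and 476 CPM in control and 140.1, 123 and 137 CPM in HSC-KO ECs (log2 fold change -1.70, SE 0.15, edgeR adjusted p = 0.000290), the smallest adjusted p among the members in this comparison. Lamp2 had 763, 865 and 909 CPM against 341, 248 and 223 CPM (log2 fold change -1.64, SE 0.20, edgeR adjusted p = 0.00146). Lamp1 had 1039, 806 and 822 CPM against 529.7, 321 and 373 CPM (log2 fold change -1.12, SE 0.23, edgeR adjusted p = 0.0120). Each of the 3 was apart between the groups, although the call of Lamp1 was lost without HSC-KO replicate 3 as given above. Cd63, in contrast to macrophages, had 33.9, 73.9 and 38.8 CPM in control and 99.8, 42.6 and 40.5 CPM in HSC-KO ECs, and was not called (log2 fold change 0.32, SE 0.42, edgeR adjusted p = 0.660). Npc1 (-0.64) and Cd68 (-1.12) were not called.

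The glycosidases were led by Man2b1 (chr8:85083270-85098282, + strand), which fell from 434, 338 and 369 CPM to 101, 58.2 and 67.9 CPM (log2 fold change -2.33, SE 0.23, edgeR adjusted p = 0.000603). Gaa, the acid alpha-glucosidase that degrades glycogen, had 188, 149 and 168 CPM against 87.9, 52.5 and 67.2 CPM (log2 fold change -1.28, SE 0.20, edgeR adjusted p = 0.00463). Hexa, the alpha subunit of hexosaminidase A, had 311, 249 and 335 CPM against 167, 122 and 133 CPM (log2 fold change -1.08, SE 0.18, edgeR adjusted p = 0.00537). For these 3 every HSC-KO library was below every control library. Glb1 (-0.85) and Neu1, the sialidase (-0.71), fell by less (edgeR adjusted p = 0.0145 and 0.0155), and Gusb was not called (0.13). Of the lipid-handling genes, Asah1 fell (log2 fold change -0.89, SE 0.14, edgeR adjusted p = 0.00474), and Psap, Lipa and Npc2 were not called (-0.46, -0.43 and -0.22). Grn was not called (-0.14). Tfeb had 19.6, 10.3 and 15.8 CPM in control and 20.3, 13.6 and 18.7 CPM in HSC-KO ECs, which overlapped (log2 fold change 0.20, SE 0.26, edgeR adjusted p = 0.650).

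The further lysosomal lists of ECs are to be read against 9.77% of all genes called lower and 10.3% called higher (6.01% and 7.68% as DEGs). Of the 18 V-ATPase genes tested, 14 were called lower, and 2 of them were DEGs, Atp6v0a1 (-2.36) and Atp6v0e2 (-1.58). The list's median was -0.63. Of the 36 hydrolases, 12 were called lower, 8 of them DEGs, among them Dpp7 (-1.76) and Galc (-1.60). Of the 29 transport genes, 12 were called lower and 1 higher, and 5 were DEGs, led by Laptm5 (-2.68), Slc36a1 (-1.41) and Tpcn1 (-1.20). Laptm5 is abundant in blood cells, and the macrophage markers given above were also lower in HSC-KO ECs. The part of macrophage transcripts in its level was not tested. Of the 17 MiT/TFE and nutrient-sensing genes tested, 6 were called lower, and the 3 DEGs were Flcn (-1.88) and Fnip1 (-1.40), partners that control TFEB and TFE3 at the lysosome, and Tfec (-1.31). Of the 20 sorting genes 5 were called lower and 2 higher, the DEGs being Vps18 (-1.11) and Igf2r (2.16). Of the 14 autophagy genes 1 was called lower, and it was no DEG. The edgeR adjusted p of the named DEGs was at most 0.0326.

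Whether macrophages and ECs of HSC-KO mice responded alike was tested as an interaction over their 12 libraries. Of the 32 members, 11 had a higher log2 fold change in macrophages than in ECs (7.58% of the 18213 genes tested) and 1 a lower (7.84%). With a difference above 1, 9 were higher (6.32%) and 1 lower (6%). Cd63 rose in macrophages and was not called in ECs (difference of log2 fold changes 6.58, SE 0.60, edgeR adjusted p = 5.06e-05). Ctsh was the member with the lower fold change in macrophages, having fallen there and risen in ECs (difference of log2 fold changes -2.15, SE 0.30, edgeR adjusted p = 0.000709). Man2b1 fell in both, and by more in ECs (difference of log2 fold changes 1.77, SE 0.32, edgeR adjusted p = 0.00343), as did Scarb2 (difference of log2 fold changes 0.87, SE 0.21, edgeR adjusted p = 0.0156). Without the EC libraries of the 3 mice that gave both kinds, which left 1 HSC-KO EC library, assumed to vary like the other groups, the differences of Scarb2, Npc1 and Asah1 were 0.93, 1.23 and 0.81, against 0.87, 1.10 and 0.81 with all libraries, and were not called (edgeR adjusted p = 0.0816 to 0.141). Npc1 and Asah1 also lost their call in most runs that left out 1 library (edgeR adjusted p = 0.0531 to 0.0881). The number with a lower fold change was 2 without macrophage HSC-KO replicate 1 and 3 without EC HSC-KO replicate 3.

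Gaa, Lamp2, Tpp1, Hexa and Asah1 fell in ECs and were not called in macrophages, with differences of 1.40, 1.38, 1.25, 1.12 and 0.81 and edgeR adjusted p from 0.00485 to 0.0370. Psap rose in macrophages while its value in ECs was -0.46 (difference of log2 fold changes 1.10, SE 0.22, edgeR adjusted p = 0.00654). Npc1 was called in neither cell type but differed between them (difference of log2 fold changes 1.10, SE 0.31, edgeR adjusted p = 0.0348). Ctsc was called too (difference of log2 fold changes 2.13, SE 0.29, edgeR adjusted p = 0.000587), although its EC level lay within the estimated supply of macrophage transcripts. Lgmn, Ctsl, Glb1, Ctsd and Ctso were called lower in both cell types, and their differences of 1.81, 1.02, 0.40, 0.33 and -0.12 were not called. Among the further lists, 10 of 36 hydrolases had a called difference above 1 and 1 below -1, as had 9 and 1 of 29 transport genes (over all genes, 6.32% and 6%). Galc (2.99) and Manba (2.60) led the hydrolases, and Tpcn1 (3.44), Laptm5 (2.91) and Slc11a1 (2.71) the transport genes. The last 2 are genes of blood cells, and the part of macrophage transcripts in their EC levels was not tested. Flcn (2.43) and Fnip1 (1.96) also differed, and Igf2r had fallen in macrophages and risen in ECs (difference of log2 fold changes -5.48, SE 0.69, edgeR adjusted p = 0.000403).

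**Figure D5:**
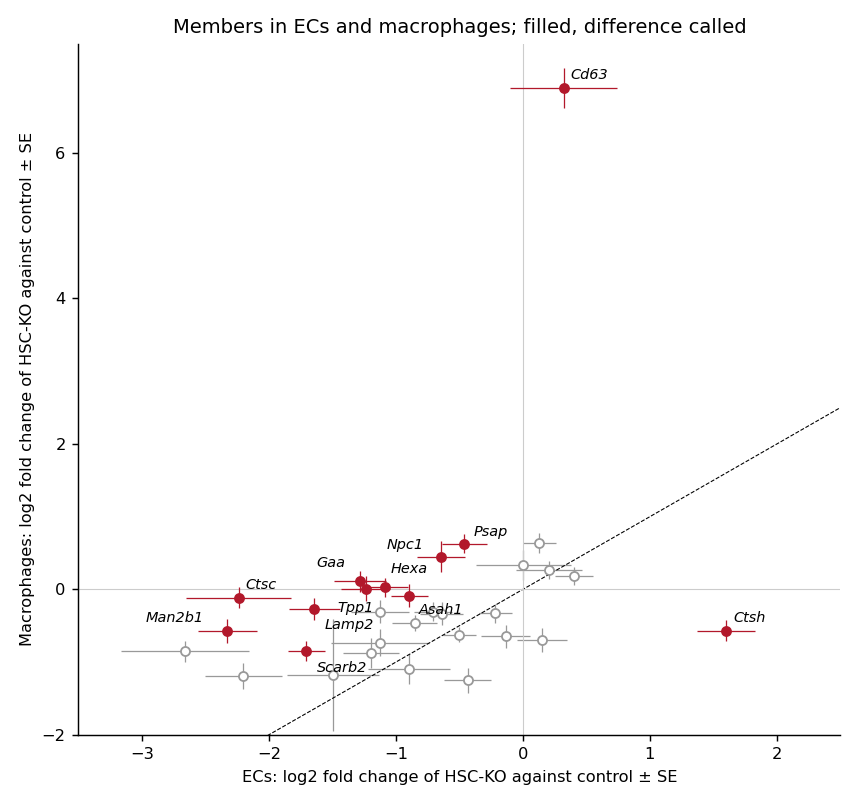
Log2 fold change of HSC-KO against control in ECs (horizontal) and macrophages (vertical) for the 31 members tested in both, with standard errors. The dashed line marks equal values. The 12 filled, named members had a called difference: Cd63 stands at the top, Ctsh at the right, and the other 10 lie above the line on the left, with a lower log2 fold change in ECs than in macrophages.

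In whole livers 1 member, Lgmn, was called lower (1.59% of the 17118 genes tested) and none higher by edgeR's quasi-likelihood test (1.24%). It was also a DEG (DEGs lower, 1.45%; DEGs higher, 1.03%). At an unadjusted p below 0.05 there were 3 members lower and 2 higher, that is 5 of 32, against 2214 of all 17118 genes, and DESeq2 called 3 lower and 1 higher. The groups did not overlap for 9 members (19.7% of all genes), and the median log2 fold change was -0.071, against -0.0098 over all genes. Lgmn had 57.6, 72.6 and 64.5 CPM in control and 28.4, 23.2 and 25.7 CPM in HSC-KO livers (log2 fold change -1.33, SE 0.14, edgeR adjusted p = 0.00334), and was called in every alternative run. Without control replicate 1, 2 members were called lower.

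Ctss had 29.004, 45.4 and 38.9 CPM in control and 18.9, 22.3 and 14.9 CPM in HSC-KO livers (log2 fold change -1.01, SE 0.21, edgeR adjusted p = 0.0519), and Cd68 had 7.22, 12.1 and 10.4 CPM against 4.18, 6.34 and 2.60 CPM (log2 fold change -1.18, SE 0.34, edgeR adjusted p = 0.164). Both groups of libraries were apart, but neither gene was called. Macrophage markers moved with them, with sums of 318 to 517 CPM in control and 124 to 244 CPM in HSC-KO livers, and so did sinusoidal EC markers, of which no HSC-KO liver had more than 32.5 CPM and no control liver less than 265 CPM. Their part in the levels of Lgmn, Ctss and Cd68 was not tested. Gusb had 23.2, 28.03 and 25.8 against 34.1, 35.3 and 32.8 CPM (log2 fold change 0.41, SE 0.12, edgeR adjusted p = 0.152), and Cd63 had 4.12, 2.75 and 3.41 against 6.06, 9.28 and 4.71 CPM (log2 fold change 0.96, SE 0.29, edgeR adjusted p = 0.188). Stellate markers were 231 to 333 CPM in control and 485 to 521 CPM in HSC-KO livers.

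Next in order of adjusted p stood Ctsl (442, 528 and 501 against 759, 747 and 482 CPM), Ctsh (199.8, 179 and 176 against 166, 139 and 169 CPM) and Man2b1 (122, 136 and 131 against 119.9, 111 and 113 CPM), with log2 fold changes of 0.43, -0.23 and -0.18. Ctsl overlapped between the groups, and Ctsh and Man2b1 were lower in every HSC-KO library. The edgeR adjusted p of these 3 was 0.421 to 0.605. Tfeb had 8.58, 8.12 and 5.32 CPM in control and 6.83, 4.90 and 9.44 CPM in HSC-KO livers (log2 fold change -0.056, SE 0.29, edgeR adjusted p = 0.972), with overlap. The other 23 members had log2 fold changes from -0.66 for Ctse, which had 21, 0 and 13 counts in control and 16, 0 and 0 counts in HSC-KO livers, to 0.64 for Ctsk. Among the further lists, Plbd1, a hydrolase (-2.83), Slc15a3 (-2.04) and Tfec (-2.12) were DEGs that fell (edgeR adjusted p at most 0.0408).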

How the data were processed

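Macrophages, ECs and livers of mice were profiled by bulk RNA-seq. The authors aligned the reads with HISAT2 to GRCm38 (mm10) and made the deposited raw counts per gene symbol with FeatureCounts; versions and strand setting are not given in the sources used here. Groups and replicates came from the sample labels, and 0 columns were left unmapped. Genes were filtered with filterByExpr (minimum count 10, minimum total 15) and tested with edgeR 4.0.16 (TMM factors, quasi-likelihood test, R 4.3.3, limma 3.58.1), only the groups compared entering a fit. P-values were adjusted by Benjamini-Hochberg over all genes tested. Interactions and the comparison of control macrophages with control ECs were fitted over the joined tables. The test was also run on simulated counts, and the outcome is not reported here. Alternatives were DESeq2 1.42.0, RLE factors, library size alone, no filter, at least 10 counts in every library, Xist as a covariate where sexes were mixed by the Xist counts (female in 1 of 3 control and 2 of 3 HSC-KO libraries for macrophages and for ECs, and in all livers but HSC-KO replicate 3; the Smad4 pair had at most 3 Xist counts), a replicate block, and each library left out.

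The members and lists were chosen with earlier results of these data known. Of the members, those that were DEGs in a comparison are given by library, with those of the smallest adjusted p up to 8 where fewer were DEGs, and Tfeb always; of the other lists at most 3 DEGs in each direction are named, and some genes are not reported here. The level that another sorted cell type could supply was its mean in mice of the same genotype (control ECs for both Smad4 groups) times the ratio of the marker sums. Exon lengths, overlaps and gene positions are from GENCODE vM21. Replicates differed by more than sampling noise (chi-square per gene 92.3 to 494.5 over 24 pairs). With 3 libraries a group, an exact permutation test cannot go below p = 0.1, so none was used.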

Additional observations from a re-analysis of the deposited data

Results flagged for a closer look

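The following members are listed because their log2 fold changes differed between groups in an interaction test with edgeR's quasi-likelihood test. Between macrophages of HSC-KO and of Smad4 cKO mice, Cd63 differed by 3.59 (edgeR adjusted p = 0.000710) and Glb1 by -1.06 (edgeR adjusted p = 0.0220). Between macrophages and ECs of HSC-KO mice, Cd63 differed by 6.58, Ctsh by -2.15, Ctsc by 2.13, Man2b1 by 1.77, Gaa by 1.40, Lamp2 by 1.38, Tpp1 by 1.25, Hexa by 1.12, Npc1 by 1.10, Psap by 1.10, Scarb2 by 0.87 and Asah1 by 0.81 (macrophages minus ECs, edgeR adjusted p from 5.06e-05 to 0.0370). No sample was tested as an outlier, since each group has 3 libraries.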

How the results depend on the processing

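The results rest on 3 mice a group, and calls near the threshold moved with single libraries, whereas no member called in the comparisons of mutants and the 2 interactions changed direction in any alternative run; for control macrophages against control ECs only the counts were recomputed. Called in every alternative in which they were tested were 8 of 17 members in HSC-KO macrophages, 2 of 9 in Smad4 cKO macrophages, 12 of 18 in ECs, 1 of 1 in livers, 1 of 2 in the interaction between macrophages and 9 of 12 in that between macrophages and ECs. DESeq2 gave 6 members higher in Smad4 cKO macrophages, 2 higher in ECs, 1 higher and 3 lower in livers, 2 higher and 3 lower in the macrophage interaction, and 3 lower in the interaction with ECs. Library size alone gave 6 higher and 4 lower in Smad4 cKO macrophages, 2 higher in ECs, 2 lower in livers and 3 lower in the interaction with ECs. With at least 10 counts in every library, 2 were lower in livers and 3 in the interaction with ECs, and with Xist as a covariate 1 was higher in livers. The cause of these shifts was not tested.

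Leaving out 1 library gave 2 to 4 members higher and 6 to 10 lower in HSC-KO macrophages, 1 to 2 higher and 1 to 5 lower in Smad4 cKO macrophages, 1 higher and 11 to 18 lower in ECs, 0 higher and 1 to 2 lower in livers, 1 higher and 0 to 2 lower in the macrophage interaction, 9 to 15 higher and 1 to 3 lower in the interaction with ECs, and 22 to 23 higher and 4 to 5 lower in control macrophages against control ECs. Same-numbered replicates did not deviate together throughout (correlations -0.206 to 0.231 in the comparisons of mutants), and the labels give them no shared source, so the numbers were not taken to pair the mice. With the replicate block, 1 member was called higher and 2 lower in Smad4 cKO macrophages, and 0 lower in the macrophage interaction.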
